A study of Mus musculus with 12 samples.

Results

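The transcription factor NRF2 and its antioxidant response genes were followed in mouse liver cells as 10 genes: Nfe2l2, which encodes NRF2, its inhibitor Keap1, and the target genes Gclc, Gclm, Slc7a11, Srxn1, Txnrd1, Nqo1, Hmox1 and G6pdx. They were listed by name as genes of the NRF2 pathway. No measured value entered that rule, but the list was chosen with earlier results of these data known. Each symbol matched 1 Ensembl identifier among the 53715 genes of the deposited count table. All 10 passed the filter on low counts and were among the 17779 genes tested. The study isolated hepatoblasts, the embryonic progenitors of the liver epithelium, differentiated them in culture into hepatocytes, and compared both with hepatocytes of the adult liver. RNA was sequenced from 4 biological replicates of each of 3 groups of C57BL/6JOlaHsd mouse cells, and no transgene or mutation was named for any group. The hepatoblasts were Dlk1+ cells (Dlk1 is a surface protein of liver progenitors) taken by magnetic separation from pooled livers of E14.5 embryos (embryonic day), and their RNA was isolated directly. The Diff. hepatocytes came from such hepatoblasts after 4 days on fibronectin in differentiation medium. That medium held serum, the glucocorticoid dexamethasone, Matrigel and an insulin, transferrin and selenium supplement. The mature hepatocytes were freed by collagenase perfusion from livers of adult males of 8 to 12 weeks and processed directly. Only the Diff. hepatocytes had thus been in culture, and the age of the animal and the way the cells were freed differed between the embryonic and the adult groups. The paper gives no sex for the pooled embryos, so sex may differ between these groups as well.

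NRF2 is held low in unstressed cells by KEAP1, which binds it and hands it to a CUL3 and RBX1 ubiquitin ligase for degradation. Electrophiles and oxidants modify cysteines of KEAP1, NRF2 then accumulates, pairs with a small MAF protein and binds antioxidant response elements near genes of glutathione synthesis, thioredoxin reduction, NADPH supply and detoxification. In the adult liver this program is known for its part in the defence against reactive drug metabolites. Because the control acts mainly on the protein, an mRNA level of Nfe2l2 or Keap1 is not a measure of NRF2 activity.

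The core letters of the antioxidant response element, TGACNNNGC, were searched on both strands of the RefSeq promoter windows (GRCm38.p6, 250 bases before to 50 bases after each transcript start). The windows of Gclm, Nfe2l2, Srxn1, Txnrd1 and G6pdx held a match, which is 5 of the 8 members in the table. The core stood in 14.0% of all 27025 genes of the table and in 12.4% of all 32851 windows, and by window it stood in 5 of the 10 windows of members, since 1 of the 3 windows of Txnrd1 held it. The windows of Keap1, Nqo1 and Slc7a11 held no match. A match is a description of letters, and no match says only that these letters were not in the window. The excerpts below show the core in capitals with the bases on either side, each written 5′ to 3′ on the strand of its gene. They are chr3:122245413-122245441 (+) for Gclm, chr2:75704885-75704913 (-) for Nfe2l2, chr2:152105542-152105570 (+) for Srxn1, chr10:82859104-82859132 (+) for Txnrd1, chrX:74428919-74428947 (-) for G6pdx and chr9:86695902-86695930 (-) for Me1, an NADPH-producing enzyme of the wider pathway.
Gclm: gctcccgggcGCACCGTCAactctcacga
Nfe2l2: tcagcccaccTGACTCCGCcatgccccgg
Srxn1: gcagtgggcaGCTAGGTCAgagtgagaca
Txnrd1: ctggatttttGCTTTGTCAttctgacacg
G6pdx: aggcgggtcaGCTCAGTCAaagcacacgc
Me1: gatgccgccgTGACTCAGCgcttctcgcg
The core lay at position -134 of Gclm, -240 of Nfe2l2, -92 of Txnrd1, -57 of G6pdx and -6 of Me1 relative to the start, and at position 29 after the start of Srxn1. In Nfe2l2 and Me1 it read on the strand of the gene, and in the other four on the opposite strand. The match of Me1 also holds TGACTCA, a binding motif of AP-1 factors, so the letters alone do not tell these factors apart.

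The 250 bases before the start are given for the members whose log2 fold change was smallest and largest in absolute size in Diff. hepatocytes against hepatoblasts, Gclm (chr3:122245307-122245556, + strand) with its core in capitals and Slc7a11 (chr3:50443614-50443863, - strand), which held none.
Gclm: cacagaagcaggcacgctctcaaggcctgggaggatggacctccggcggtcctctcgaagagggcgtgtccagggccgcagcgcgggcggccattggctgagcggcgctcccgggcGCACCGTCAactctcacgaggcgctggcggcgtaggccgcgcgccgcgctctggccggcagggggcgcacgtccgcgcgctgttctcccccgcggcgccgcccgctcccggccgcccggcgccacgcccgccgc
Slc7a11: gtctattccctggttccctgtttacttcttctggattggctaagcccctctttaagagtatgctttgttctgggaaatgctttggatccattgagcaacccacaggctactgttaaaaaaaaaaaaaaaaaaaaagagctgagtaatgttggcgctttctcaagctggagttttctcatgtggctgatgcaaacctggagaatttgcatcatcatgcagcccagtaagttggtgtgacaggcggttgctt

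The 12 libraries held 19581551 to 25216977 counts each. Values are given as CPM, the usual measure of counts relative to library size, here after TMM scaling. A gene was called higher or lower where the quasi-likelihood test of edgeR gave a Benjamini-Hochberg adjusted p under 0.01 and the log2 fold change was beyond 1 in either direction. The labels were checked with marker genes. The 5 hepatoblast markers (Dlk1, Afp, Igf2, H19, Gpc3) summed to 41800 to 70000 CPM in hepatoblasts, 37800 to 44100 in the Diff. hepatocytes and 65.9 to 109 in mature hepatocytes, and the 10 hepatocyte markers summed to 35000 to 59400, 81100 to 95100 and 142000 to 177000. Hepatoblasts replicate 1 stood apart with other cell types: compared with the other 3 libraries all 9 erythroid, 9 macrophage and 8 endothelial markers were higher in it, by medians of 2.70, 1.78 and 1.58 on the log2 scale. In replicate 1 of the Diff. hepatocytes, all 9 macrophage markers were higher, by a median of 1.96, as were 7 of 9 erythroid (1.07), 5 of 5 bile duct (0.81) and 8 of 9 mesenchymal markers (0.69). The 9 mesenchymal markers summed to 674 to 1310 CPM in hepatoblasts, 1180 to 2920 in Diff. and 51.2 to 74.0 in mature hepatocytes, and the 5 bile duct markers to 12.9 to 15.1, 70.0 to 213 and 15.4 to 40.7. In bulk RNA, fewer cells of a type and less RNA per cell cannot be told apart.

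The NRF2 genes did not move as 1 block. In Diff. hepatocytes against hepatoblasts, Nqo1, Gclc, Srxn1 and Slc7a11 rose and Hmox1 and G6pdx fell, so 6 of 10 members were called, 4 higher and 2 lower, where 28.9% of all genes tested were called (14.9% higher and 14.0% lower). In mature hepatocytes against hepatoblasts, Nqo1, Gclc, Gclm and Srxn1 rose and Hmox1, Slc7a11 and G6pdx fell, which is 7 of 10 called against 44.8% of all genes (20.1% higher and 24.7% lower). In Diff. hepatocytes against mature hepatocytes, Hmox1, Slc7a11 and G6pdx were higher and Gclc and Gclm lower, 5 of 10 called against 35.8% of all genes (20.2% higher and 15.6% lower). The median log2 fold change of the 10 members was 0.33, 0.78 and -0.10 in these comparisons, beside -0.01, -0.15 and 0.09 over all genes tested. The groups did not overlap in CPM for 7, 10 and 7 of the members, where 57.5%, 66.0% and 61.6% of all genes did not overlap. The 3 comparisons share their groups in pairs and are not independent of each other.

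**Figure D1:**
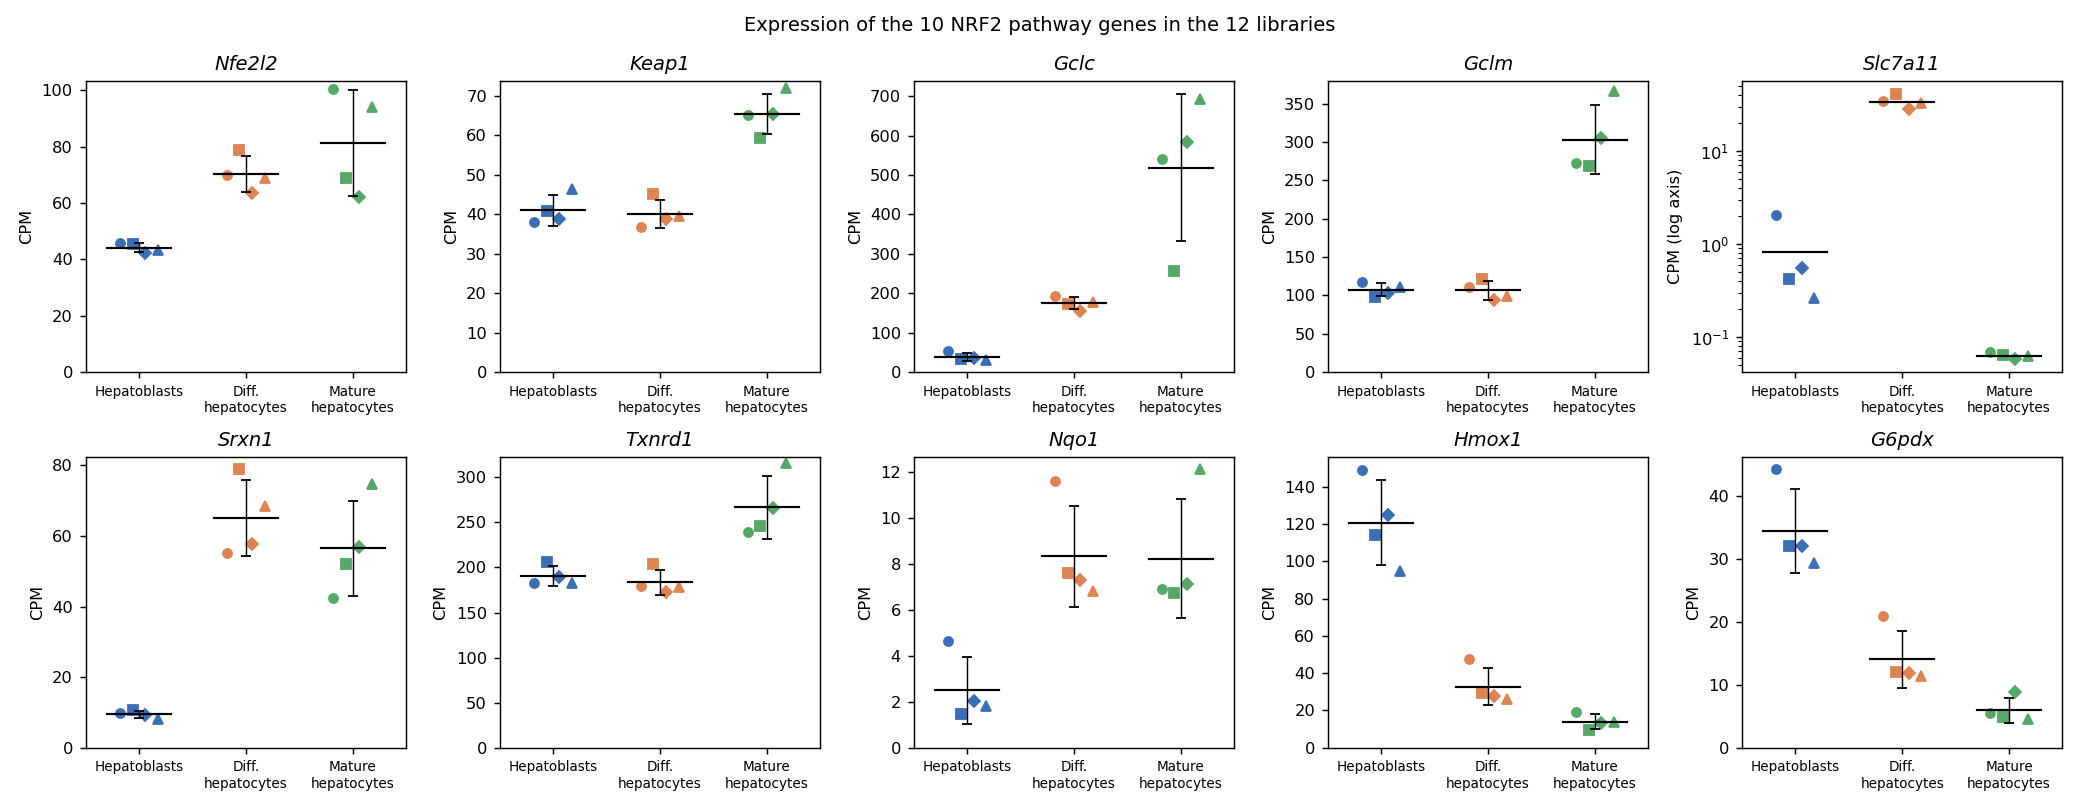
CPM of each of the 10 genes (y axis, log axis for Slc7a11 only) in the 4 libraries of hepatoblasts, Diff. hepatocytes and mature hepatocytes (circle, square, diamond and triangle for replicates 1 to 4); lines are group means and bars the SD (n = 4, no bar for Slc7a11). Slc7a11 lay between 27.9 and 40.6 CPM in Diff. hepatocytes and at 2.03 CPM or less in the 8 other libraries, while Hmox1 and G6pdx were highest in hepatoblasts.

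**Figure D2:**
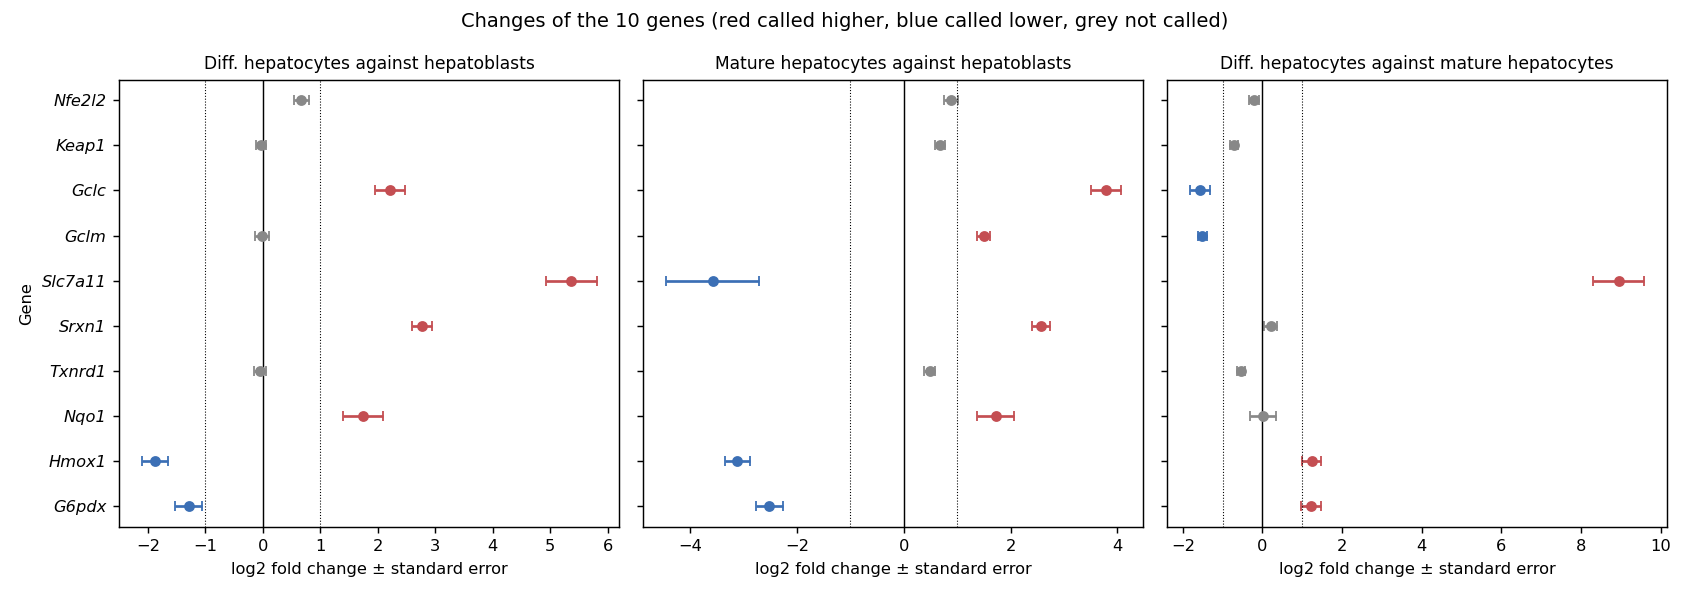
Log2 fold change (x axis, TMM scaling) of each gene (y axis) with its standard error in the 3 comparisons over 12 libraries; red was called higher, blue called lower, grey not called, and dotted lines mark a log2 fold change of 1 in either direction. The largest change is that of Slc7a11, 8.95 in Diff. hepatocytes against mature hepatocytes; with library totals in place of TMM the points of Keap1 and Txnrd1 in the second panel and of Nfe2l2 in the third change sign, as does Txnrd1 in the third with totals that leave out the 50 most abundant genes.

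Another scaling moved these differences where mature hepatocytes were involved. With library totals in place of TMM, the median log2 fold change of all genes was -0.34 in Diff. hepatocytes against hepatoblasts, -1.0 in mature hepatocytes against hepatoblasts and 0.62 in Diff. hepatocytes against mature hepatocytes. A change of scaling shifts all genes of a comparison by nearly the same amount. Distances from that median therefore stay nearly the same by construction and cannot tell which scaling is right. Gclm in mature hepatocytes against hepatoblasts lay 1.65 above it with TMM and 1.63 with library totals, and Nqo1 1.87 and 1.82. Between mature hepatocytes and hepatoblasts, library totals called 2 members higher and 3 lower (Gclc and Srxn1 kept their calls, Nqo1 and Gclm did not), in place of 4 and 3. Between Diff. and mature hepatocytes they called 3 higher and 1 lower in place of 3 and 2, and against hepatoblasts the Diff. hepatocytes kept 4 and 2, while all genes went from 2648 higher and 2497 lower to 1985 and 3621.

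Neither regulator was called in any comparison. Nfe2l2 (chromosome 2, 75675513 to 75704641, minus strand, GRCm38) was at 45.9, 45.3, 42.3 and 43.2 CPM in hepatoblasts replicates 1 to 4, at 70.0, 78.7, 63.6 and 68.9 in Diff. hepatocytes and at 100.4, 68.9, 62.1 and 94.2 in mature hepatocytes. Hepatoblasts were lowest with no overlap, and the other groups overlapped. The log2 fold change was 0.67 ± 0.14 (SE; adjusted p = 0.000903) in Diff. hepatocytes against hepatoblasts, 0.88 ± 0.14 (adjusted p = 6.24e-05) in mature hepatocytes against hepatoblasts, both under the fold threshold and the second 0.01 with library totals, and -0.21 ± 0.14 (adjusted p = 0.19) between Diff. and mature hepatocytes, which became 0.33 with library totals. Keap1 (chromosome 9, 21229730 to 21239361, minus strand) was at 37.9, 40.7, 38.7 and 46.5 CPM in hepatoblasts, at 36.7, 45.2, 38.8 and 39.4 in Diff. hepatocytes and at 65.1, 59.4, 65.2 and 72.0 in mature hepatocytes. Mature hepatocytes lay above both other groups, which overlapped each other. The log2 fold change of Keap1 was -0.03 ± 0.09 in Diff. hepatocytes against hepatoblasts, with a sign that turned in fits without 1 library, and 0.68 ± 0.09 in mature hepatocytes against hepatoblasts, which became -0.18 with library totals. Measured from the median of all genes, the value in mature hepatocytes against hepatoblasts was 0.83 with TMM and 0.82 with library totals, a distance that hardly depends on the scaling by construction. Of the exon bases of Keap1, 10.9% overlap Gm16754 on the opposite strand, and the strand setting of the counting was not stated.

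The ratio of Nfe2l2 to Keap1 within each library does not depend on the scaling. As counts per kb of exon it was 1.50, 1.38, 1.35 and 1.15 in hepatoblasts, 2.36, 2.15, 2.03 and 2.16 in the Diff. hepatocytes and 1.91, 1.43, 1.18 and 1.62 in mature hepatocytes. Diff. hepatocytes had the highest ratio, 2.17 ± 0.14 (SD, n = 4) against 1.34 ± 0.14 in hepatoblasts and 1.53 ± 0.31 in mature hepatocytes, without overlap (two-sided exact permutation test, p = 0.0286 for each, the smallest that 70 assignments can give; adjusted over 9 tests of ratios 0.0368). Hepatoblasts and mature hepatocytes overlapped (p = 0.343, exact permutation test, adjusted 0.386).

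Among the partners of this pair, Cul3, the scaffold of the ligase, was between 61.5 and 75.3 CPM in all 12 libraries, with log2 fold changes from -0.01 to 0.01 across the comparisons. Bach1, a repressor that competes for the same elements, was at 40.2, 27.1, 27.5 and 23.8 CPM in hepatoblasts, 132.6, 181.5, 134.9 and 160.1 in the Diff. hepatocytes and 94.1, 132.9, 89.5 and 125.2 in mature hepatocytes. It rose against hepatoblasts by 2.36 ± 0.18 in Diff. hepatocytes (adjusted p = 1.93e-07) and by 1.90 ± 0.18 in mature hepatocytes (adjusted p = 6.05e-07) on the log2 scale. Mafg, a small MAF partner of NRF2, rose in mature hepatocytes against hepatoblasts by 1.29 ± 0.10 and had a log2 fold change of 0.63 ± 0.10 in Diff. hepatocytes, under the fold threshold. Maff, another small MAF, fell in mature hepatocytes against hepatoblasts by 1.33 on the log2 scale (SE 0.27, adjusted p = 0.000656), and Mafk, also a small MAF, had a log2 fold change of -0.58 ± 0.15 there and was not called. Sqstm1, whose protein p62 draws KEAP1 into autophagy, rose by 1.41 ± 0.15 in Diff. and 1.48 ± 0.15 in mature hepatocytes. Of the exon bases of Sqstm1, 17.3% overlap Mrnip on the opposite strand. The values of these partners are with TMM. With library totals the median of all genes in mature hepatocytes against hepatoblasts was -1.0 in place of -0.15, so the rises of Mafg and Sqstm1 there depend on the scaling.

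In glutathione synthesis, Gclc rose in both hepatocyte groups against hepatoblasts and Gclm in mature hepatocytes. Gclc (chromosome 9, 77754535 to 77794485, plus strand) encodes the catalytic subunit of glutamate-cysteine ligase, the rate-limiting enzyme of glutathione synthesis. It was at 53.3, 33.1, 34.5 and 30.3 CPM in hepatoblasts, at 193, 173, 156 and 178 in Diff. hepatocytes and at 541, 256, 584 and 694 in mature hepatocytes. The groups did not overlap and rose in that order, and mature hepatocytes replicate 2 was the lowest of its group. Gclc rose by 2.21 ± 0.26 on the log2 scale in Diff. hepatocytes (adjusted p = 9.28e-06) and by 3.78 ± 0.28 in mature hepatocytes (adjusted p = 4.4e-08) against hepatoblasts, and was 1.57 lower on the log2 scale in Diff. than in mature hepatocytes (log2 fold change -1.57 ± 0.26, adjusted p = 0.000122). That last call was lost with the fold threshold inside the test (adjusted p = 0.0201 in edgeR's glmTreat, 0.14 in DESeq2) and with totals that leave out the 50 most abundant genes (-0.9989).

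Gclm (chromosome 3, 122245557 to 122270732, plus strand) encodes the modifier subunit of the same enzyme. Its CPM was 117, 98.4, 104 and 111 in hepatoblasts, 111, 121, 94.3 and 99.5 in the Diff. hepatocytes and 273, 269, 305 and 366 in mature hepatocytes. The first pair of groups overlapped throughout, and all 4 mature libraries lay above them. The log2 fold change was -0.02 ± 0.12 (adjusted p = 0.92) in Diff. hepatocytes against hepatoblasts, near 0 with either sign in fits without 1 library. Gclm rose in mature hepatocytes by 1.50 ± 0.12 against hepatoblasts (adjusted p = 7.85e-08), which was 0.63 and not called with library totals. Of its 75-base transcript sequences, 2.84% are shared with other genes, among them Ppia.

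The ratio of Gclc to Gclm per kb in a library was 0.759, 0.563, 0.556 and 0.455 in hepatoblasts, 2.91, 2.39, 2.76 and 2.99 in the Diff. hepatocytes and 3.31, 1.59, 3.20 and 3.16 in mature hepatocytes. Hepatoblasts thus carried fewer Gclc than Gclm counts per kb in each library and the other libraries more. The mean was 0.583 ± 0.127 in hepatoblasts, 2.76 ± 0.27 in the Diff. hepatocytes and 2.82 ± 0.82 in mature hepatocytes (SD, n = 4; exact permutation p = 0.0286 for each against hepatoblasts, adjusted 0.0368). Between Diff. and mature hepatocytes the exact permutation p was 1, and mature hepatocytes replicate 2 lay below all 4 Diff. libraries.

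**Figure D3:**
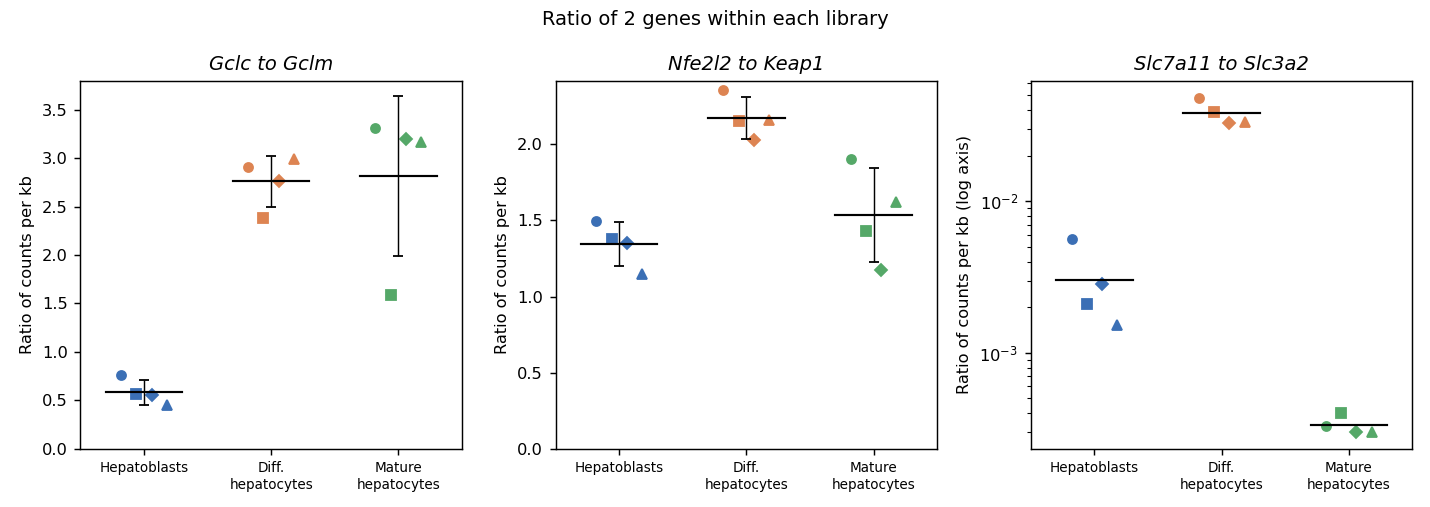
Ratio of 2 genes, in counts per kb of exon, within each of the 12 libraries (circle, square, diamond and triangle for replicates 1 to 4; lines are means, bars the SD, n = 4; the third panel has a log axis and no bars). The ratio of Gclc to Gclm was at most 0.759 in hepatoblasts and at least 1.59 elsewhere, and the ratio of Nfe2l2 to Keap1 was highest in Diff. hepatocytes.

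Slc7a11 (chromosome 3, 49892526 to 50443614, minus strand) encodes xCT, the transporter that imports cystine for glutathione synthesis in exchange for glutamate. It was at 2.03, 0.418, 0.55 and 0.265 CPM in hepatoblasts, at 34.0, 40.6, 27.9 and 33.0 in Diff. hepatocytes and at 0.0686, 0.0642, 0.0584 and 0.0621 in mature hepatocytes, where each library held 1 count. Diff. hepatocytes were far above both other groups, and none of the groups overlapped. The mesenchymal and bile duct marker sums were also highest in Diff. hepatocytes, with the mesenchymal sum lowest in mature hepatocytes, and their part in the values of Slc7a11 was not tested. In Diff. hepatocytes replicate 1, where both sums were highest, Slc7a11 was 0.03 above the other 3 libraries on the log2 scale. Pooled over libraries, 3028 counts in Diff. hepatocytes stood beside 102 in hepatoblasts and 4 in mature hepatocytes. The ratio of Diff. hepatocytes to hepatoblasts was 41.8 (exact 95% interval 34.3 to 51.5), that to mature hepatocytes 538 (210.1 to 1977) and that of hepatoblasts to mature hepatocytes 12.9 (4.88 to 48.2), where the intervals cover counting error only. In edgeR's quasi-likelihood test Slc7a11 rose by 5.37 ± 0.44 on the log2 scale in Diff. hepatocytes against hepatoblasts (adjusted p = 2.82e-07) and fell by 3.58 on the log2 scale in mature hepatocytes (SE 0.88, adjusted p = 0.00233). Without hepatoblasts replicate 1 these log2 fold changes were 6.35 and -2.61. In that library Slc7a11 was higher than in the other 3 by 2.13 on the log2 scale, beside the erythroid and macrophage markers, whose part was not tested.

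Slc3a2, which encodes the heavy chain CD98 that pairs with xCT, was at 90.9, 50.6, 49.1 and 43.7 CPM in hepatoblasts, 179, 264, 214 and 250.2 in the Diff. hepatocytes and 52.8, 40.8, 49.3 and 52.3 in mature hepatocytes. It rose by 1.95 ± 0.21 in Diff. hepatocytes against hepatoblasts (adjusted p = 4.04e-06) and was 2.22 ± 0.22 above mature hepatocytes (adjusted p = 1.02e-06) on the log2 scale. The ratio of Slc7a11 to Slc3a2 per kb was 0.0384 ± 0.0071 in Diff. hepatocytes, 0.00303 ± 0.00183 in hepatoblasts and 0.000332 in mature hepatocytes, the last from 1 count of Slc7a11 a library, so the heavy chain changed less than the transporter (exact permutation p = 0.0286, adjusted 0.0368, for each pair of groups). Gss and Gsr, which complete glutathione and reduce it again, were not called in any comparison, with log2 fold changes from -0.34 to 0.14 and from -0.49 to 0.74.

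Of the thioredoxin genes, Srxn1 rose against hepatoblasts in both hepatocyte groups and Txnrd1 was not called. Srxn1 (chromosome 2, 152105516 to 152111376, plus strand) encodes sulfiredoxin, which repairs overoxidized peroxiredoxins. It was at 9.87, 10.6, 9.33 and 8.29 CPM in hepatoblasts, at 55.2, 79.0, 57.8 and 68.4 in Diff. hepatocytes and at 42.4, 52.1, 57.0 and 74.6 in mature hepatocytes. Each hepatoblast library lay far below the other 8, which overlapped. Srxn1 rose by 2.77 ± 0.17 in Diff. hepatocytes (adjusted p = 2.52e-08) and by 2.57 ± 0.17 in mature hepatocytes (adjusted p = 1.58e-08) on the log2 scale, and had a log2 fold change of 0.20 ± 0.16 between them (adjusted p = 0.28). Txnrd1 (chromosome 10, 82833951 to 82897712, plus strand), the cytosolic thioredoxin reductase, was at 183, 206, 189.6 and 182 CPM in hepatoblasts, 179, 204, 173 and 179 in the Diff. hepatocytes and 239, 246, 266 and 316 in mature hepatocytes. In edgeR's quasi-likelihood test Txnrd1 had a log2 fold change of -0.05 ± 0.10 in Diff. hepatocytes (adjusted p = 0.682) and 0.49 ± 0.10 in mature hepatocytes against hepatoblasts (adjusted p = 0.000653). The latter was -0.37 with library totals. Its distance above the median of all genes, 0.64 with TMM and 0.63 with library totals, hardly depends on the scaling by construction. Txn1, the thioredoxin that Txnrd1 reduces, rose in mature hepatocytes against hepatoblasts by 1.05 ± 0.08 with TMM (adjusted p = 4.91e-08) and had a log2 fold change of -0.05 ± 0.08 in Diff. hepatocytes. With library totals the median of all genes in the former comparison was -1.0 in place of -0.15, so the rise of Txn1 depends on the scaling.

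Nqo1 (chromosome 8, 107388225 to 107403206, minus strand), the quinone reductase often read as a marker of NRF2 activity, was low in all groups. It was at 4.64, 1.46, 2.04 and 1.82 CPM in hepatoblasts, at 11.6, 7.62, 7.28 and 6.80 in Diff. hepatocytes and at 6.92, 6.74, 7.12 and 12.1 in mature hepatocytes. Hepatoblasts were lowest with no overlap, and the other groups overlapped. Nqo1 rose by 1.74 ± 0.34 in Diff. hepatocytes (adjusted p = 0.000674) and by 1.72 ± 0.34 in mature hepatocytes (adjusted p = 0.000521) on the log2 scale, and the log2 fold change between them was 0.02 ± 0.33 with either sign in fits without 1 library. With the fold threshold inside the test (edgeR's glmTreat) neither rise was called (adjusted p = 0.03 and 0.0199).

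Hmox1 and G6pdx fell in both hepatocyte groups against hepatoblasts. Hmox1 (chromosome 8, 75093621 to 75100589, plus strand) encodes heme oxygenase 1, which breaks down heme and is also known as a gene of macrophages that clear red cells. It was at 149, 114, 125 and 94.6 CPM in hepatoblasts, at 47.4, 29.4, 27.7 and 26.2 in Diff. hepatocytes and at 19.1, 9.56, 13.4 and 13.6 in mature hepatocytes. The groups fell in that order without overlap. Hmox1 fell by 1.88 on the log2 scale in Diff. hepatocytes (SE 0.22, adjusted p = 9.01e-06) and by 3.12 in mature hepatocytes (SE 0.24, adjusted p = 6.05e-08) against hepatoblasts, and was 1.23 ± 0.23 higher in Diff. than in mature hepatocytes (adjusted p = 0.000354; 0.162 in edgeR's glmTreat, where the call was lost).

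G6pdx (chromosome X, 74409483 to 74429194, minus strand) encodes glucose-6-phosphate dehydrogenase, the entry to the pentose phosphate pathway and a source of NADPH. It was at 44.2, 32.0, 32.1 and 29.3 CPM in hepatoblasts, at 20.9, 12.0, 11.8 and 11.4 in Diff. hepatocytes and at 5.48, 4.94, 8.93 and 4.53 in mature hepatocytes, again in falling order without overlap. G6pdx fell by 1.29 on the log2 scale in Diff. hepatocytes (SE 0.24, adjusted p = 0.00036) and by 2.52 in mature hepatocytes (SE 0.25, adjusted p = 8.9e-07), and was 1.23 ± 0.25 higher in Diff. than in mature hepatocytes (adjusted p = 0.000719). With the fold threshold inside the test (edgeR's glmTreat), the fall in Diff. hepatocytes (adjusted p = 0.142) and the difference from mature hepatocytes (adjusted p = 0.191) were not called. Without Diff. hepatocytes replicate 1, the log2 fold change between Diff. and mature hepatocytes was 0.9997 for Hmox1 and 0.97 for G6pdx, both under the threshold, and 1 member was called higher in place of 3. Of the exon bases of G6pdx, 13.6% overlap Ikbkg on the opposite strand. Pgd, which takes the third step of the same pathway, was between 122 and 168 CPM in Diff. hepatocytes, beside 135 to 140.5 in hepatoblasts, and fell by 1.03 on the log2 scale in mature hepatocytes against hepatoblasts (SE 0.11, adjusted p = 1.43e-06).

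Markers of other cells moved with Hmox1 and G6pdx in part. The 9 macrophage markers summed to 338, 83.3, 106 and 103 CPM in hepatoblasts replicates 1 to 4, to 162, 71.4, 23.2 and 34.3 in Diff. hepatocytes and to 245, 141, 268 and 137 in mature hepatocytes. The 9 erythroid markers with a symbol in the annotation summed to 300 to 2470 CPM in hepatoblasts, 6.49 to 24.1 in the Diff. hepatocytes and 135 to 184 in mature hepatocytes, with Epb42 and Gata1 at 0 in all mature libraries. In hepatoblasts replicate 1 Hmox1 and G6pdx were higher than in the other 3 libraries by 0.43 and 0.51 on the log2 scale, and in Diff. hepatocytes replicate 1 by 0.77 and 0.83. Hmox1 and G6pdx were lowest in mature hepatocytes, and the macrophage and erythroid sums were lowest in Diff. hepatocytes. The part of these other cells in the values of Hmox1 and G6pdx was not tested. Without hepatoblasts replicate 1 the log2 fold change of Hmox1 was -1.76 in Diff. and -3.01 in mature hepatocytes, and that of G6pdx -1.14 and -2.38, all still called.

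**Figure D4:**
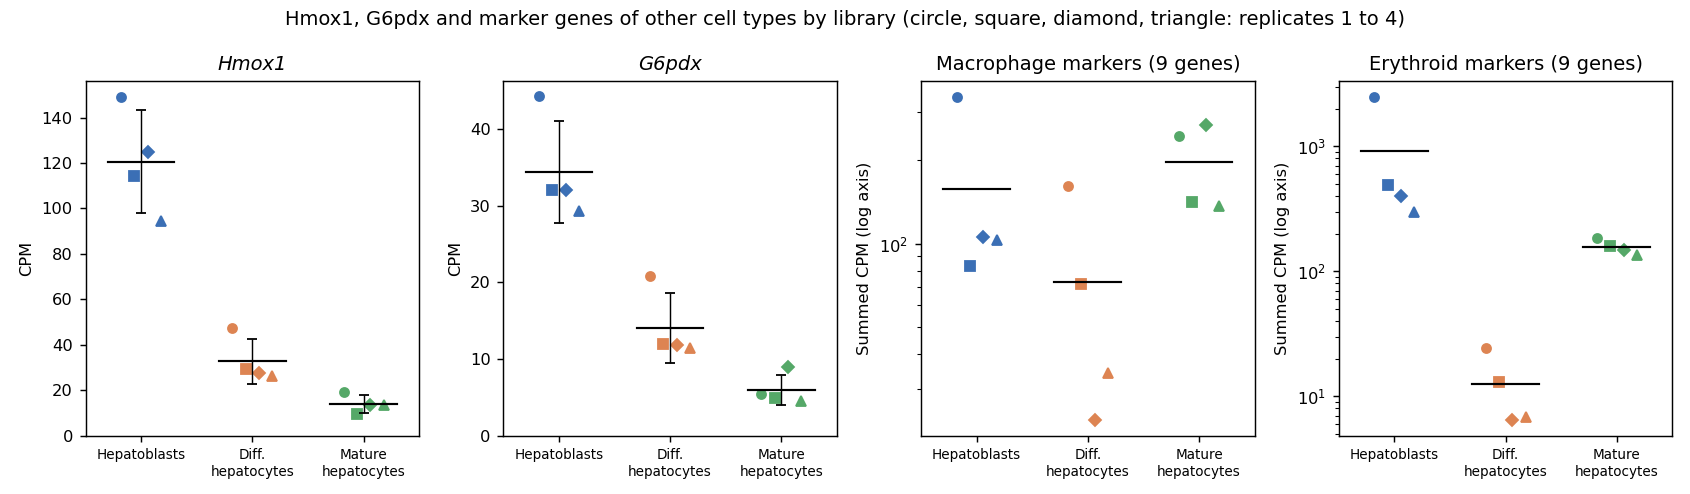
CPM of Hmox1 and G6pdx (linear axes from 0; lines are means, bars the SD, n = 4) and summed CPM of 9 macrophage and 9 erythroid marker genes (log axes; lines are means) in each of the 12 libraries. Replicate 1, the circle, was highest for both genes and both sums in hepatoblasts and in Diff. hepatocytes. In mature hepatocytes Hmox1 was lowest and the macrophage sums were 137 to 268 CPM.

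The steps next to Hmox1 differed. Hmox2, the constitutive heme oxygenase, rose in Diff. hepatocytes against hepatoblasts by 1.17 ± 0.09 (adjusted p = 1.46e-07) and had a log2 fold change of 0.70 ± 0.09 in mature hepatocytes. Of the exon bases of Hmox2, 40.2% overlap Cdip1 on the opposite strand, and the strand setting of the counting was not stated. Blvrb, a biliverdin reductase also abundant in red cells, was at 127, 38.7, 39.0 and 39.0 CPM in hepatoblasts, 14.0, 15.8, 14.2 and 14.4 in the Diff. hepatocytes and 130.4, 111, 119 and 188 in mature hepatocytes. Hepatoblasts replicate 1, with its high erythroid markers, lay within the mature range. Blvrb fell in Diff. hepatocytes by 2.06 (SE 0.36, adjusted p = 0.000273) and was called higher in mature hepatocytes, 1.17 ± 0.35 (adjusted p = 0.00794), although these groups overlapped. That call was made with TMM and depends on the scaling, since library totals put the median of all genes there at -1.0 in place of -0.15.

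Levels of different genes were compared per kb of exon. The length was that of all annotated exons of a gene merged, not that of the transcript expressed, so the order of genes depends on it. In hepatoblasts Hmox1 led with a mean of 68.9 CPM per kb, followed by Txnrd1 at 26.9 and Gclm at 17.1, each above the next in all libraries. Nfe2l2, G6pdx, Gclc and Keap1 came next at 11.6, 11.2, 10.04 and 8.72, neighbours whose libraries overlapped, and Slc7a11 was last at 0.0586. In Diff. hepatocytes Gclc led at 46.5 CPM per kb, Txnrd1, Srxn1, Hmox1, Nfe2l2 and Gclm followed between 25.9 and 16.9 with overlap of neighbours, and Slc7a11 was last at 2.43. In mature hepatocytes Gclc led at 138 CPM per kb, Gclm and Txnrd1 overlapped at 48.2 and 37.6, and Hmox1 and Nqo1 overlapped at 7.95 and 5.30. Hmox1 thus went from the first place among the members in hepatoblasts to the seventh in mature hepatocytes, and Gclc took the lead in both hepatocyte groups. Slc7a11 had the longest merged exon length of the members, so its CPM per kb was low even where its counts were high, and its last place in Diff. hepatocytes depends on that length.

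In the wider pathway, 64 other genes were tested. Against hepatoblasts, 23 were called higher and 5 lower in Diff. hepatocytes (median log2 fold change 0.61), and 30 higher and 5 lower in mature hepatocytes (median 0.98, or 1.01 over 63 genes without Gpx2, which was at or under 3 counts in both groups), while 9 were higher and 23 lower in Diff. against mature hepatocytes (median -0.44). Of all genes tested, 14.9% were higher and 14.0% lower in the first comparison, 20.1% and 24.7% in the second and 20.2% and 15.6% in the third, and the counts of each list below are to be read beside these shares. With library totals the splits were 20 and 10, 17 and 13, and 12 and 14. Values of single pathway genes, here and below, are with TMM. In mature hepatocytes against hepatoblasts library totals put the median of all genes at -1.0 in place of -0.15. Rises of single genes there that lie not far over the fold threshold therefore depend on the scaling. Of the 64, 21 were called in none of the comparisons.

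Detoxification genes had the largest medians. Of 19, 11 were higher and 2 lower in Diff. hepatocytes and 14 higher and 2 lower in mature hepatocytes against hepatoblasts, with medians of 1.61 and 2.17, and 4 were higher and 12 lower in Diff. against mature hepatocytes (median -1.63). Cbr1, a carbonyl reductase, rose by 4.00 ± 0.24 in Diff. hepatocytes and was still higher there than in mature hepatocytes, between 181 and 394 CPM against 67.7 to 115. Ephx1, the microsomal epoxide hydrolase, rose by 3.89 ± 0.17 in Diff. and 6.58 ± 0.19 in mature hepatocytes. Abcc4, an efflux pump of the sinusoidal membrane, was at 103, 44.8, 79.4 and 80.9 CPM in Diff. hepatocytes, 11.5 to 14.9 in hepatoblasts and 2.38 to 4.47 in mature hepatocytes, so it rose by 2.57 ± 0.22 in the former and fell by 1.99 on the log2 scale in the latter. Abcc3 rose by 2.34 ± 0.35 and 5.70 ± 0.40. Gsta2, a glutathione transferase that shares 36.6% of its 75-base sequences with close copies, held 10 counts in all in hepatoblasts and 1581 in mature hepatocytes, a ratio of 313 (exact 95% interval 169.8 to 654, counting error only). Gsta1, which shares 84.7% of its 75-base sequences and is therefore uncertain, was at 0 counts in hepatoblasts and at least 13.9-fold higher in Diff. and 20.7-fold higher in mature hepatocytes against a floor of 3 counts a library.

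Of the 11 other glutathione genes, 5 were higher in Diff. hepatocytes and none lower, and 3 were higher and 1 lower in mature hepatocytes against hepatoblasts. Gpx3, the secreted glutathione peroxidase, was at 81.2, 36.8, 62.2 and 48.0 CPM in Diff. hepatocytes, at 18.0 to 22.9 in hepatoblasts and at 0.31 to 0.642 in mature hepatocytes. Like Slc7a11 and the mesenchymal marker sum it was highest in Diff. hepatocytes and lowest in mature hepatocytes, and both Gpx3 and that sum (2920 CPM) were highest in Diff. hepatocytes replicate 1, whose part was not tested. Gpx3 had log2 fold changes of 1.48 ± 0.20 and -5.41 ± 0.31 against hepatoblasts. Gpx1, the cytosolic peroxidase, and Mgst1, a membrane-bound transferase, rose in mature hepatocytes by 3.64 ± 0.34 and 4.58 ± 0.17 and were not called in Diff. hepatocytes (-0.41 and 0.64).

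Of the 11 thioredoxin genes, 2 were higher and 2 lower in Diff. hepatocytes and 4 higher and 0 lower in mature hepatocytes against hepatoblasts (all genes 14.9% and 14.0%, then 20.1% and 24.7%) in edgeR's quasi-likelihood test. Prdx5, a peroxiredoxin, rose by 1.56 ± 0.09 and 2.56 ± 0.10, and Prdx4 and Prdx2 fell in Diff. hepatocytes by 1.31 and 1.16 on the log2 scale. On the opposite strand, 19.1% of the exon bases of Prdx5 overlap Trmt112 and 11.5% of those of Prdx2 overlap Rnaseh2a and Junb. Of the 6 genes of NADPH supply, 1 was higher and 0 lower in Diff. hepatocytes against hepatoblasts (median log2 fold change -0.03). In mature hepatocytes 2 were higher and 1 lower (median 0.47). Me1, malic enzyme 1, was at 7.26 to 12.8 CPM in hepatoblasts, 102 to 118 in the Diff. hepatocytes and 166 to 270.5 in mature hepatocytes, a rise of 3.40 ± 0.20 and 4.37 ± 0.21, the reverse of G6pdx. Of its 75-base sequences, 16.4% are shared with pseudogenes. Of the 6 heme and iron genes, 2 were higher and 1 lower in Diff. hepatocytes and 4 higher in mature hepatocytes, among them Fth1, the ferritin heavy chain, by 1.64 ± 0.15 and 1.65 ± 0.15. Of the 4 other antioxidant enzymes, Cat, catalase, rose by 1.27 ± 0.11 and 4.26 ± 0.13, and Sod1 and Sod2 were called higher in mature hepatocytes, by 1.56 ± 0.09 and 1.59 ± 0.09, and not in Diff. hepatocytes (-0.55 and 0.49).

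**Figure D5:**
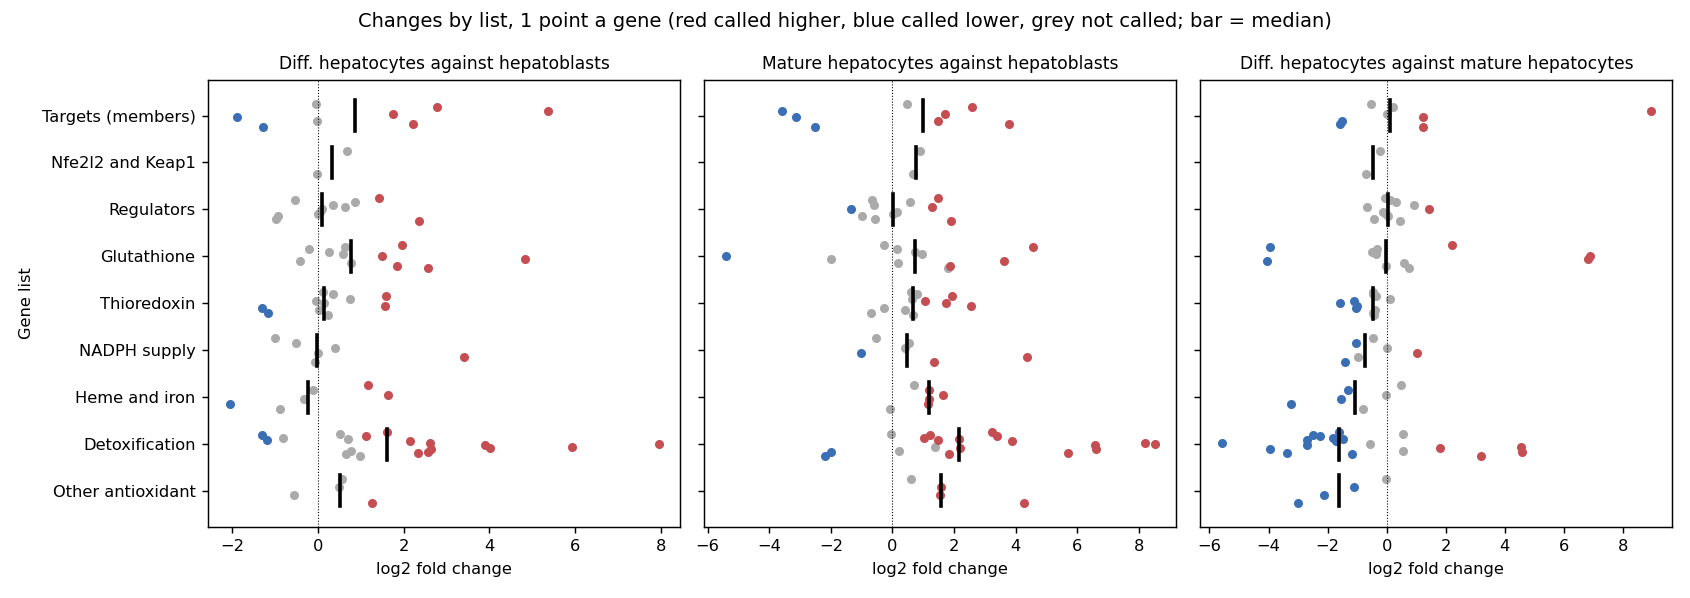
Log2 fold change (x axis, TMM scaling) of each gene of the member and pathway lists (y axis), 1 point a gene, in the 3 comparisons; red was called higher, blue called lower, grey not called, and bars are list medians. Detoxification genes lie mostly to the right against hepatoblasts and to the left in Diff. against mature hepatocytes; the points of Gsta1 (against hepatoblasts) and Gpx2 (against mature hepatocytes) were fitted against groups at 0 counts and are no measure of size.

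The genes whose pattern over the 12 libraries came closest to each member were found among 8697 genes with a mean of at least 10 CPM, by the root-mean-square distance of log2 CPM centred on its mean. The distance was not scaled by the size of a gene's changes, so genes that change little lie close to each other. Among the closest to Nfe2l2 were Fnip1 (0.13) and AW209491 (0.15), and those to Keap1 were Tent4b (0.08), Mapk9 and Nfu1. For Gclc they were Lhpp (0.36), St3gal3 and Macrod1, and for Gclm Fbxo3 (0.13), Fkbp8 and Spryd7. For Slc7a11, the member with the largest changes, the nearest were Pfkp (0.80) and Stc2 (0.80), and large changes make such distances large. The closest to Srxn1 were Pnpla2 (0.25), Dusp3 and Ctsf, those to Txnrd1 Ccny (0.06), Usp47 and Psmd12, and those to Nqo1 Fth1 (0.33), itself a gene of the pathway lists, Arrdc4 and Prps1. For Hmox1 they were Tubb5 (0.22), Marcksl1 and Nup107, and for G6pdx Myo9a (0.21), Golt1b and Casp2. Among the members the closest pairs were Keap1 with Txnrd1 (0.14), Nfe2l2 with Keap1 (0.34), Nfe2l2 with Txnrd1 (0.35) and Hmox1 with G6pdx (0.40).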

How the data were processed

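RNA-seq libraries of 12 samples, 4 each of hepatoblasts, Diff. hepatocytes and mature hepatocytes, were grouped by their labels. The authors mapped poly(A) reads of 75 bases with STAR 2.5.2b to GRCm38 after FastQC 0.11.2 and deposited raw counts, whole numbers for each gene that were not normalized. The paper calls the libraries strand-specific, and the strand setting of the counting is not given in the sources used here. Symbols, positions and exon lengths (all annotated exons of a gene merged) came from GENCODE M21, and 53620 of 53715 identifiers matched.

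The 17779 genes that exceeded 10 counts in at least 1 sample were tested with edgeR 4.0.16 (R 4.3.3) by the quasi-likelihood test over 12 libraries, with TMM, group as the only term and Benjamini-Hochberg adjustment over all genes. CPM use TMM-scaled library sizes, and log2 CPM a prior count of 2. Each tested SE is the log2 fold change over the root of its F statistic. Ratios were compared by exact permutation (SciPy 1.17.1). The test was checked on simulated counts in which few genes were changed, as many up as down. That check cannot tell which scaling is right for these data. Replicate libraries of a group differed by more than counting error (chi-square per gene 6.43 to 99.2), and p-values measure the spread between them. Alternatives were DESeq2 1.42.0, glmTreat, other scalings, filters and sample sets, a replicate block and each library left out. All members were named, and the pathway genes named were chosen among those of a rule (the up to 4 called genes a list with the largest change and at least 10 CPM, or partners of a member). The 3 genes nearest in pattern to each member were also named, except some that are not reported here. Members, lists and the motif were chosen with earlier results of these data known.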

Additional observations from a re-analysis of the deposited data

Results flagged for a closer look

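In 19 of 141 groups of 4 libraries (members, a part of the pathway genes, and ratios), 1 library stood further from the other 3 than Dixon's 95% critical value allows, where chance gives about 7.0. The other pathway genes were not examined in this way. Hepatoblasts replicate 1 made up 10 of them, mature hepatocytes replicate 4 made up 4, Diff. hepatocytes replicate 1 made up 3, and hepatoblasts replicate 3 and mature hepatocytes replicate 2 made up 1 each.

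Among the members, Diff. hepatocytes replicate 1 was above its group for Nqo1 (11.6 CPM, the next library 7.62), Hmox1 (47.4 CPM, next 29.4) and G6pdx (20.9 CPM, next 12.0). Hepatoblasts replicate 1 was above for Slc7a11 (2.03 CPM, next 0.55), and mature hepatocytes replicate 4 for Nqo1 (12.1 CPM, next 7.12). The ratio of Gclc to Gclm was low in mature hepatocytes replicate 2 (1.59, next 3.16).

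Among the pathway genes examined, hepatoblasts replicate 1 was above its group for Blvrb (127 CPM, next 39.0), Fech (168 CPM, next 76.0), Prdx2 (336 CPM, next 157), Gpx1 (465 CPM, next 184), Fth1 (724 CPM, next 498), Txnip (87.8 CPM, next 48.2), Slc3a2 (90.9 CPM, next 50.6), Taldo1 (129 CPM, next 96.8) and Abcc3 (24.0 CPM, next 9.08). The median erythroid marker was 2.70 higher (log2) in the same library, and its part in these values was not tested. Mature hepatocytes replicate 4 was above for Cbr1 (115 CPM, next 71.3), Fech (296 CPM, next 201) and Ftl1 (710.3 CPM, next 570), and hepatoblasts replicate 3 for Txn1 (142 CPM, next 131).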

How the results depend on the processing

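Of the 288 counts of calls recomputed under other settings, 260 stayed within 1.5 times, 155 of them in fits without 1 library. Some of those fits, for counts and for single members, left out a library of the group outside the comparison. Such a library changes little by construction, so these totals are no measure of robustness. Library totals moved 6 counts and kept 6, and totals without the 50 most abundant genes moved 7 and kept 5. A fold threshold inside the test moved 5 and kept 7, in edgeR and in DESeq2 alike. Of 717 values of single members 670 kept their direction and call, and the 72 ratios without 1 library moved by less than 1 SD. DESeq2's Wald test, its size factors, the other filters, the 8-library fits and the replicate block moved no count by over 1.5 times; a minimum of 10 counts in every sample leaves no value for Slc7a11. The cause of the changes below was not tested, except that a threshold inside the test is stricter by construction. With the fold threshold inside the test, members lower in Diff. hepatocytes against hepatoblasts went from 2 to 1 (glmTreat, DESeq2), pathway genes lower from 5 to 1 and 0; in mature hepatocytes against hepatoblasts, pathway genes lower from 5 to 3 and 2; in Diff. against mature hepatocytes, members higher from 3 to 1 and lower from 2 to 1 in both. Slc7a11 in mature hepatocytes against hepatoblasts then had an adjusted p of 0.0107 in edgeR's glmTreat. With library totals, and totals without the 50 most abundant genes, pathway genes lower in Diff. hepatocytes against hepatoblasts were 10 and 9; in mature hepatocytes against hepatoblasts, members higher were 2 and 2, pathway genes higher 17 and 19 and lower 13 and 11; in Diff. against mature hepatocytes, members lower were 1 and 0, pathway genes lower 14 and 14 and, without the 50, higher 14. At an adjusted p under 0.05 with no fold threshold, the counts were 12 pathway genes lower in Diff. hepatocytes against hepatoblasts, 7 members higher and 11 pathway genes lower in mature hepatocytes against hepatoblasts, and 4 members lower in Diff. against mature hepatocytes.

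Signs turned for small differences. In mature hepatocytes against hepatoblasts, library totals gave Keap1 -0.18 and Txnrd1 -0.37 (-0.19 without the 50 genes); in Diff. against mature hepatocytes, Nfe2l2 0.33 and 0.35, and Txnrd1 0.0232 without the 50 genes. All genes called higher and lower went from 3580 and 4391 to 2007 and 7920 with library totals in mature hepatocytes against hepatoblasts, and from 3586 and 2776 to 5500 and 1776 in Diff. against mature hepatocytes. Without 1 library, the log2 fold change in Diff. hepatocytes against hepatoblasts ran from -0.11 to 0.0274 for Keap1 and -0.10 to 0.0411 for Gclm, and that of Nqo1 in Diff. against mature hepatocytes from -0.18 to 0.26; members higher in the last comparison ran from 1 to 3, the lowest without Diff. hepatocytes replicate 1. Without both replicate 1 libraries that stood apart, a choice made after seeing the data, Gclm was 0.02, Nqo1 -0.17 and G6pdx 0.98 in these comparisons.

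Samples with the same replicate number correlated at -0.059 to 0.324 between hepatoblasts and Diff. hepatocytes, -0.031 to 0.092 between hepatoblasts and mature hepatocytes and -0.081 to 0.087 between Diff. and mature hepatocytes, beside -0.352 to 0.242, -0.09 to 0.093 and -0.092 to 0.121 for different numbers. In the first, the same-number pairs of replicates 1 to 4 were at 0.324, -0.059, 0.246 and 0.184, and those of replicates 1 and 3 lay above every pair of different numbers. Nothing in the labels ties a number to a shared litter or day. The numbers were therefore not taken to pair the samples, although these correlations do not settle whether they do. With the number as a replicate block, Nqo1 in Diff. against mature hepatocytes was -0.0189, and no other call or direction changed. Depth limits Slc7a11 in mature hepatocytes, where each library held 1 count.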

Other observations

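Genes of the amino acid response, which ATF4 drives and which also includes Slc7a11, were looked up after the values of Slc7a11 had been seen, so they get no test as a list. Of 10 such genes, 3 were higher and 1 lower in Diff. hepatocytes against hepatoblasts (median log2 fold change -0.02), 0 were higher and 7 lower in mature hepatocytes against hepatoblasts (median -3.45), and 9 were higher and 0 lower in Diff. against mature hepatocytes (median 3.63), by edgeR's quasi-likelihood test. Of all genes tested, 14.9% were higher and 14.0% lower in the first comparison, 20.1% and 24.7% in the second and 20.2% and 15.6% in the third. Trib3, a pseudokinase, was highest in Diff. hepatocytes, as Slc7a11 was, with 179 ± 34.0 CPM in Diff. hepatocytes, 5.45 ± 4.38 in hepatoblasts and 10.4 ± 5.35 in mature hepatocytes (SD, n = 4). Asns, asparagine synthetase, and Psat1, of serine synthesis, were not called in Diff. hepatocytes against hepatoblasts, at 156 ± 18.8 and 570.0 ± 94.2 CPM in hepatoblasts and 159 ± 8.21 and 541 ± 56.9 in Diff. hepatocytes, and were at 5.64 ± 2.26 and 3.96 ± 0.85 CPM in mature hepatocytes. Phgdh, the first enzyme of serine synthesis, fell in both, from 345 ± 62.3 CPM in hepatoblasts to 75.9 ± 5.14 in Diff. hepatocytes and 0.806 ± 0.249 in mature hepatocytes.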
